A study of Mus musculus with 12 samples.

Results

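The genes described here are 10 secreted acute-phase proteins of the liver other than serum amyloid A: Orm1, Orm2, Orm3, Lcn2, Hp, Hpx, Apcs, Lbp, Itih3 and Serpina3n. They were taken by symbol from the deposited expression table, which lists 23284 genes. All 10 were present and all 10 reached the level required for testing, among 11548 genes tested. The table gives FPKM, in which the fragments of a transcript are divided by its length and by the mapped fragments of the library, so levels below are per length.

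Liver RNA was sequenced from mice without mouse Apoa1 and Apoe (Apoa1-/- Apoe-/-, abbreviated DKO) and from mice with the same deletions that also expressed the human APOA1 gene (DKO/hA1). Diets were standard laboratory chow and a high-fat Western diet, each given for 22 weeks. On chow there were 4 libraries of DKO and 2 of DKO/hA1 mice, and on Western diet 3 of each genotype. Every group carried the double knockout, so no comparison includes a mouse with its own Apoa1 and Apoe. Age, sex and the promoter that drives the transgene are not given in the sources used here, and the labels do not say that each library came from a separate mouse, so the p-values measure the spread between libraries.

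When tissue is injured or infected, interleukin-6, interleukin-1 and tumour necrosis factor reach the hepatocyte, and STAT3, NF-kB and C/EBP factors switch on a set of secreted plasma proteins, the positive acute-phase proteins. The orosomucoids and lipocalin 2 are small carrier proteins, haptoglobin and hemopexin bind haemoglobin and haem set free from red cells, Apcs and Lbp recognise cell debris and bacterial lipopolysaccharide, and Itih3 and Serpina3n belong to protease inhibitor families. Lipocalin 2 is also stored in the granules of neutrophils.

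The genes lie on 7 chromosomes, and only the orosomucoids are neighbours, within a stretch of chromosome 4. Of the 10, 7 had an entry among the RefSeq promoters of build GRCm38.p6, which hold 250 bases before and 50 after a start. That start was the outer end of the RefSeq gene interval for Apcs, Hpx, Lcn2 and Orm2, and lay 62, 89 and 200 bases inside it for Serpina3n, Orm3 and Itih3. The letters TTNNGNAA, which many C/EBP sites contain, occurred on either strand in the windows of 5 of these 7 genes (Hpx, Lcn2, Orm2, Orm3 and Serpina3n) and in 40.7% of all 32851 windows. TTCNNNGAA, the core of STAT sites, occurred in that of Apcs (8.3% of all windows). A form of the NF-kB site occurred in that of Serpina3n (1.63% of all windows). TATAAA occurred in those of Itih3, Orm2 and Orm3 (13.6% of all windows). A match describes letters and shows no binding. The upstream sequences of Orm2, Orm3 and Lcn2 are shown because these were the 3 genes that passed the test of the diet effect averaged over genotypes. Each line gives the 250 bases before that start, 5′ to 3′ on the strand of the gene, so that the last 89 of Orm3 lie within its gene interval. Capitals mark the letters of TTNNGNAA on either strand.
Orm2, plus strand, chr4:63362199-63362448: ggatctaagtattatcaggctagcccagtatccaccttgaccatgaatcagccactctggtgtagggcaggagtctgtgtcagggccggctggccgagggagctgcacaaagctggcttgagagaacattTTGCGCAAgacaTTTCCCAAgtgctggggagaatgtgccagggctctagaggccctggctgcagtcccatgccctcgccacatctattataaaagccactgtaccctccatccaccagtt
Orm3, plus strand, chr4:63355908-63356157: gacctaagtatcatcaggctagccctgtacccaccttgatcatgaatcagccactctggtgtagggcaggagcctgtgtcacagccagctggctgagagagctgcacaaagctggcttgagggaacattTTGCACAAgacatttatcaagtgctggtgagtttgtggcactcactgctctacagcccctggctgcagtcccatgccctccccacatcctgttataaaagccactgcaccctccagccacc
Lcn2, minus strand, chr2:32387740-32387989: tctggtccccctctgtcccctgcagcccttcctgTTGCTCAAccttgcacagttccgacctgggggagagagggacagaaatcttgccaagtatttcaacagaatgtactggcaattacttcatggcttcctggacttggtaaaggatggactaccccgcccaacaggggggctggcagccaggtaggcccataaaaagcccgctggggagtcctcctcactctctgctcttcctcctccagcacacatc
Orm2 and Orm3 shared 219 identical bases over 255 aligned columns (85.9%). Both held the marked letters a little over 100 bases before that start and TATAAA within 33 bases of it, and Orm2 held the marked letters at a second place.

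FPKM summed to 379689 to 578927 per library, and read numbers are not used here. As a check of the genotypes, Apoa1 was 30.4 to 77.4 FPKM in the 7 libraries without the transgene and 122 to 239.8 in the 5 with it, and the table does not separate the human from the mouse transcript. Apoe was 25.7 to 89.8 FPKM without the transgene and 12.9 to 53.2 with it, so both deleted genes carried FPKM in every library. Hepatocyte markers such as Ttr, Ahsg and Hpd were abundant throughout. Alb, the albumin gene, was listed at 0 in every library outside DKO Western diet and was left out of the tests. In 2 libraries the 10 most abundant genes held far more of the summed FPKM than elsewhere: 28.4% in DKO Western diet replicate 2 and 27.4% in replicate 3 of the DKO/hA1 Western diet group, against 12.7 to 19.7% in the other 10. This sum leaves out small RNA genes and genes listed at 0 throughout a group, such as Alb and Trf. The shares of the acute-phase genes below are of all FPKM. The same 2 libraries had the highest summed FPKM of the acute-phase genes, and Hp, Hpx and Orm1 were among their 10 most abundant genes. These 2 were thus picked partly by the genes described here, and results are also given without them.

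The 10 genes rose and fell together from library to library. In DKO mice on chow they made up 1.28 to 1.99% of all FPKM. On Western diet they made up 3.33, 9.68 and 6.13% in DKO replicates 1, 2 and 3. With human APOA1 the shares were 1.70 and 1.96% on chow, and 1.76, 2.40 and 9.75% in Western diet replicates 1, 2 and 3. The transcripts were thus most abundant in 4 livers, the 3 DKO Western diet livers and DKO/hA1 Western diet replicate 3, whereas the other 2 DKO/hA1 Western diet livers were close to chow. All 10 genes were higher in each of those 4 libraries than in each of the other 8, a pattern held by 2.25% of all genes tested, and the 4 were picked from these values. In DKO Western diet livers all 10 genes were highest in replicate 2 and lowest in replicate 1, as were 13.4% of all genes. DKO chow replicate 1 was the highest of its group for all 10 genes (24.4% of all genes), and replicate 2 was the higher of the DKO/hA1 chow libraries for all 10 (48.3%). In the DKO/hA1 Western diet group replicate 3 was highest and replicate 1 lowest for 9 of the 10, all but Lbp (19.3% of all genes). Replicates 1 and 2 of that group lay within the range of the 6 chow libraries for 6 of the 10 (Orm1, Orm3, Hpx, Apcs, Lbp and Serpina3n; 47.6% of all genes).

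**Figure D1:**
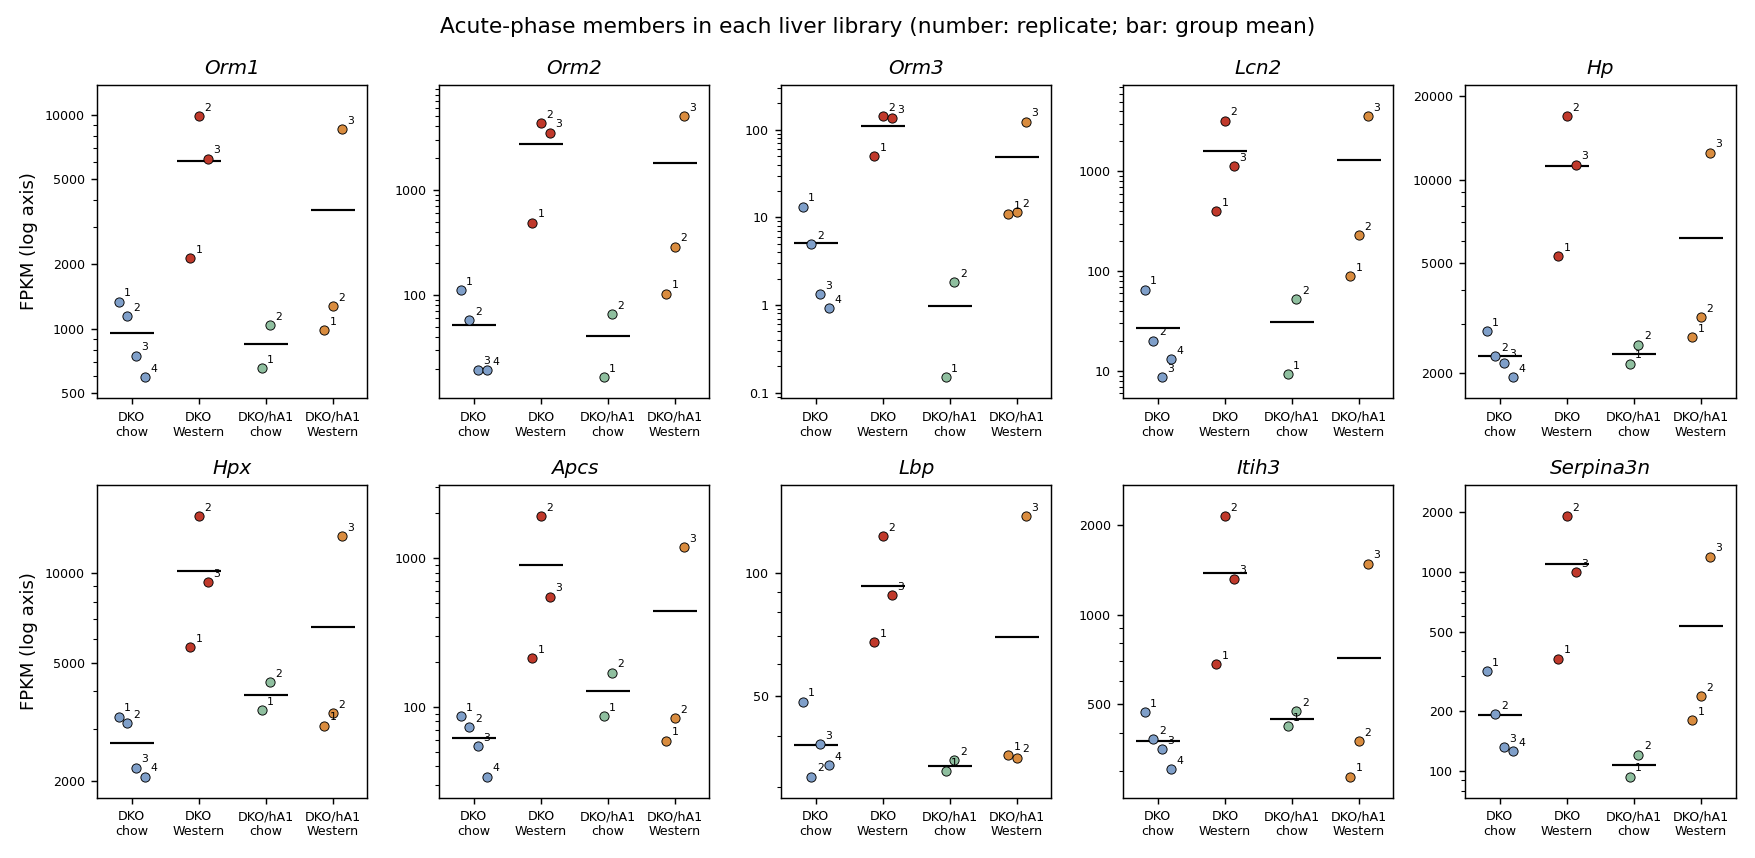
FPKM of each of the 10 genes (log axis, a separate scale for each gene) in the 12 liver libraries by group. Points are libraries with their replicate number and bars are group means; the 3 DKO Western diet points and DKO/hA1 Western diet replicate 3 lie above all other points in every panel.

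**Figure D2:**
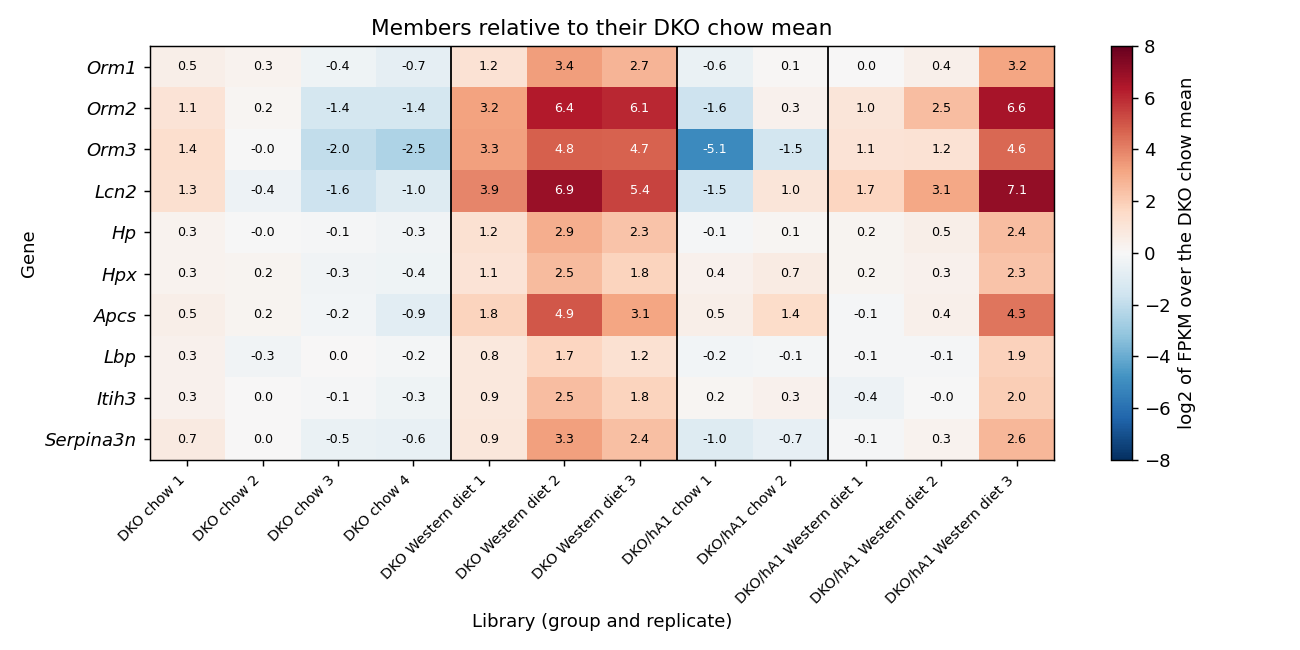
Log2 of each library's FPKM over the DKO chow mean of the same gene, with genes in rows and libraries in columns. Colours vary most along the rows of Orm2, Orm3 and Lcn2, whose highest library is 300.4, 950.4 and 411 times the lowest. Orm3 is lowest in DKO/hA1 chow replicate 1 (0.150 FPKM, against a DKO chow mean of 5.12).

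Orm1, Orm2 and Orm3 encode orosomucoids, also called alpha-1-acid glycoproteins, plasma carriers of lipophilic molecules. Orm1 (chromosome 4, 63344556 to 63348163) was the abundant copy on chow. It was 1342, 1149, 749 and 595 FPKM in DKO chow replicates 1 to 4 and 2136, 9854 and 6228 in DKO Western diet replicates 1 to 3. The DKO/hA1 values were 653 and 1039 on chow and 988, 1273 and 8551 on Western diet. The DKO diet groups did not overlap, and the DKO/hA1 diet groups did. The group means rose from 959 ± 346 to 6073 ± 3861 FPKM (SD, n = 4 and 3), but the log2 fold change of 2.41 ± 0.74 (SE) did not pass (limma adjusted p = 0.267), nor did that averaged over genotypes (1.91 ± 0.58, adjusted p = 0.098).

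Orm2 (chromosome 4, 63362449 to 63365877) had a far wider range than Orm1. It was 112, 57.9, 19.5 and 19.4 FPKM in DKO chow replicates 1 to 4, and 489, 4288 and 3471 in DKO Western diet replicates 1 to 3. With human APOA1 it was 16.6 and 65.5 on chow and 103, 289 and 4997 on Western diet. The diet groups did not overlap within either genotype, and DKO/hA1 Western diet replicate 1 lay below DKO chow replicate 1. Averaged over genotypes Orm2 rose by 4.72 ± 1.02 on the log2 scale (26.4-fold, adjusted p = 0.033).

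Orm3 (chromosome 4, 63356069 to 63359506) had the lowest median over the 12 libraries of the 10 genes (11.1 FPKM), although in DKO Western diet its mean (109 FPKM) was above that of Lbp (93.0 FPKM). It was 13.3, 4.96, 1.32 and 0.922 FPKM in DKO chow replicates 1 to 4, and 50.2, 142.5 and 135 in DKO Western diet replicates 1 to 3. In DKO/hA1 livers it was 0.150 and 1.81 on chow and 10.8, 11.4 and 123 on Western diet. The diet groups were again separate within each genotype. Averaged over genotypes Orm3 rose by 4.15 ± 0.74 on the log2 scale (adjusted p = 0.0161), and the 1 FPKM added before the log2 makes this smaller than the ratio of the levels.

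The composition of the orosomucoids differed between the diets. On chow Orm1 made up 91.5 to 97.5% of the summed Orm FPKM in the 6 libraries and Orm2 2.48 to 7.62%. The share of Orm2 was 18.3, 30.0 and 35.3% in DKO Western diet replicates 1 to 3, and 9.36, 18.4 and 36.5% in DKO/hA1 Western diet replicates 1 to 3. All 6 Western diet libraries therefore had a larger Orm2 share than all 6 chow libraries, also where the summed level (1102 and 1573 FPKM in DKO/hA1 Western diet replicates 1 and 2) was near that of chow (615 to 1467 FPKM). The split between Orm1 and Orm2 is uncertain, because 20.4% of the 50-base stretches of the Orm1 transcript also occur in another Orm transcript, as do 21.8% of those of Orm2 and 3.59% of those of Orm3, and the sources used here do not say how such reads were divided.

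**Figure D3:**
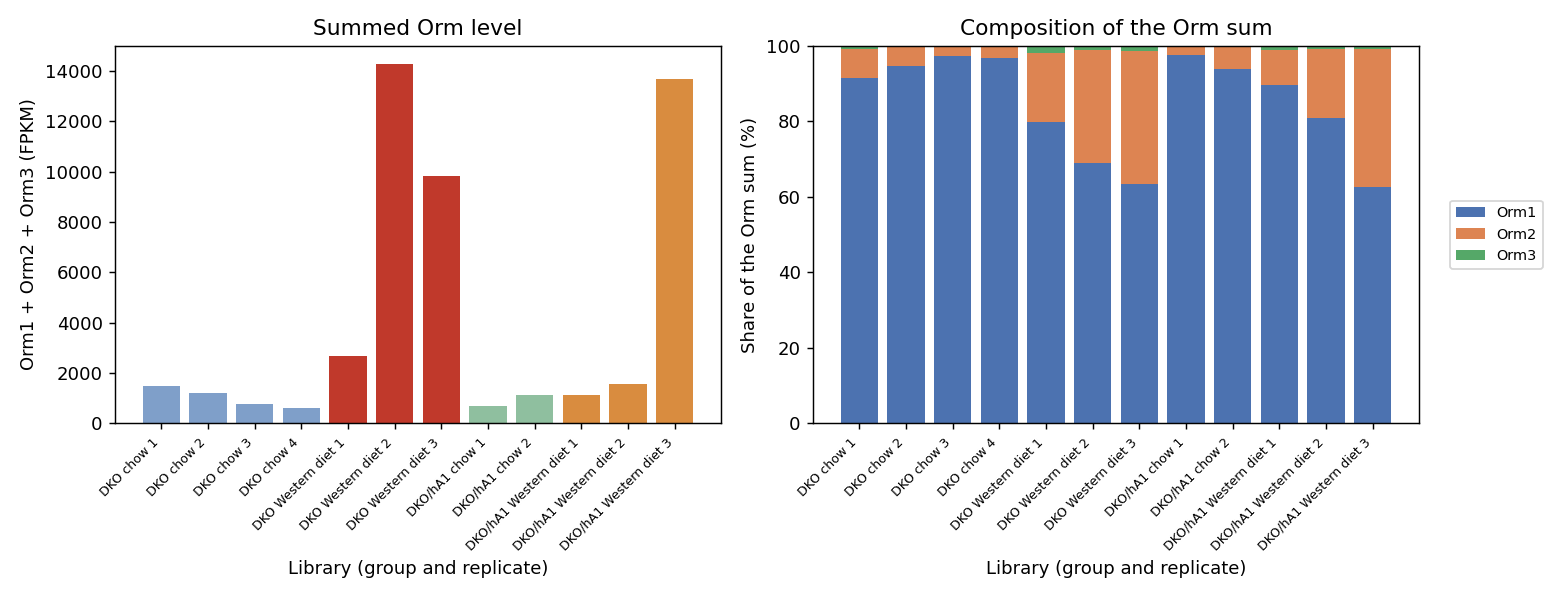
Summed FPKM of Orm1, Orm2 and Orm3 in each library (left) and the share of each gene in that sum in percent (right). The Orm2 share is at most 7.62% in the chow libraries and reaches 36.5% in DKO/hA1 Western diet replicate 3.

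Lcn2 (chromosome 2, 32384637 to 32387739) encodes lipocalin 2, which binds bacterial siderophores and so withholds iron. It was 65.5, 20.1, 8.70 and 13.1 FPKM in DKO chow replicates 1 to 4, and 401, 3222 and 1132 in DKO Western diet replicates 1 to 3. The DKO/hA1 values were 9.34 and 52.8 on chow and 89.7, 231 and 3574 on Western diet. Lcn2 was the only one of the 10 genes with all 6 Western diet libraries above all 6 chow libraries, which held for 2.51% of all genes. Averaged over genotypes it rose by 4.92 ± 0.98 on the log2 scale (30.3-fold, adjusted p = 0.0245). The fold changes within each genotype, 5.69 ± 1.26 without and 4.15 ± 1.50 with human APOA1, did not pass (adjusted p = 0.149 and 0.243).

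Among the Western diet livers neutrophil markers were high where Lcn2 was high, but on chow they did not always follow it. The summed FPKM of 14 such genes, a list without Lcn2, was 14.0 to 30.3 in DKO chow and 25.6 to 32.2 in DKO/hA1 chow. In DKO Western diet replicates 1 to 3 it was 114, 1111 and 299, and in the same replicates of DKO/hA1 Western diet 20.1, 83.9 and 993. The neutrophil marker S100a8 was 455 FPKM in DKO Western diet replicate 2 and 426 in replicate 3 of DKO/hA1 Western diet, against 6.73 to 11.9 on chow. In DKO/hA1 Western diet replicate 1 Lcn2 (89.7 FPKM) stood above every chow library although the neutrophil sum was within the chow range. Replicate 2 of DKO/hA1 chow had more Lcn2 than replicate 1 (52.8 against 9.34 FPKM) and a lower neutrophil sum (25.6 against 32.2). DKO chow replicate 1 was the highest of its group for both (65.5 and 30.3). Of the 13 neutrophil markers tested, 1, the receptor gene Csf3r, rose in the averaged diet effect (0.80 ± 0.19, adjusted p = 0.0446), and the median was 2.07. Without the 2 libraries 4 of 11 rose (Camp, Elane, Ltf and Mpo). In bulk tissue, a change in the number of cells of a type and a change in RNA per cell cannot be told apart, and the part of neutrophils in the results for all 10 genes was not tested.

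**Figure D4:**
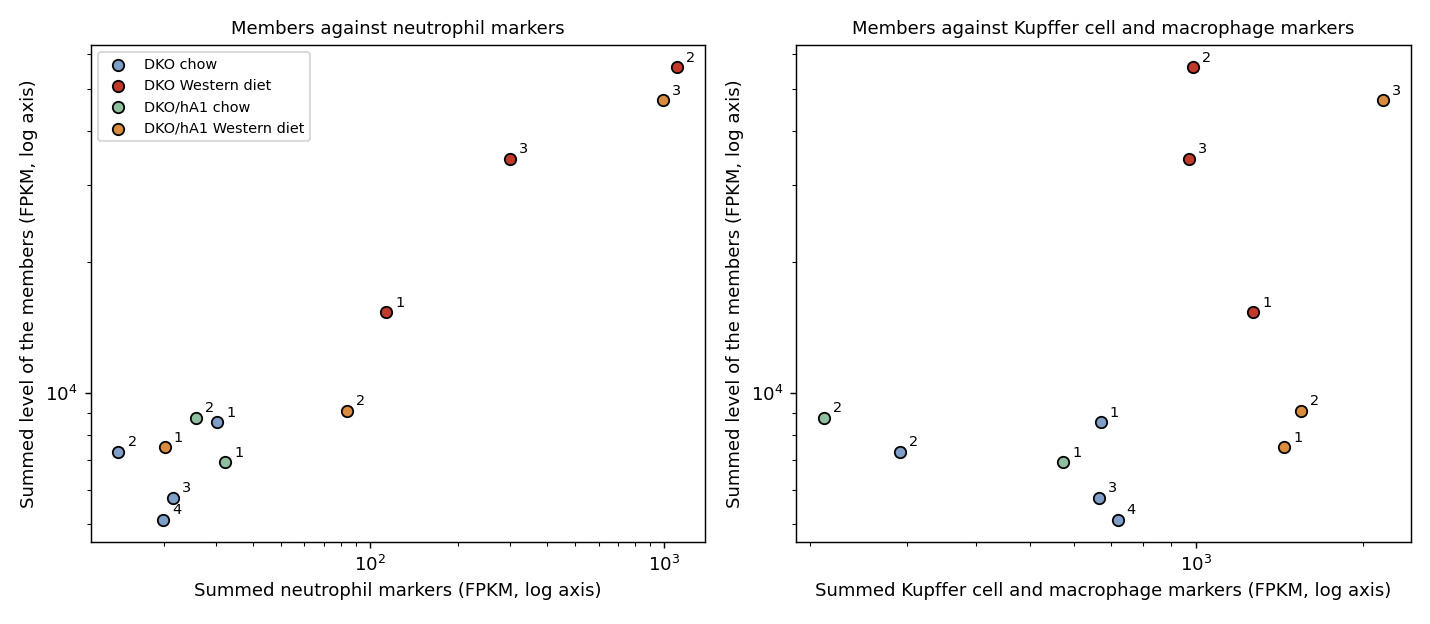
Summed FPKM of the 10 acute-phase genes (vertical, log axis) against the summed FPKM of neutrophil markers (left) and of Kupffer cell and macrophage markers (right), both on log axes, with 1 point for each library and its replicate number. The highest points on the left are replicate 2 of DKO Western diet and replicate 3 of DKO/hA1 Western diet, with neutrophil sums of 1111 and 993 FPKM.

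Haptoglobin and hemopexin, which carry haemoglobin and haem to the liver and to macrophages for disposal, were the most abundant of the 10 transcripts. Hp (chromosome 8, 109575128 to 109579172) was 2825, 2298, 2175 and 1927 FPKM in DKO chow replicates 1 to 4, and 5285, 16955 and 11337 in DKO Western diet replicates 1 to 3. With human APOA1 it was 2154 and 2521 on chow and 2684, 3183 and 12532 on Western diet. The chow libraries lay close together and the diet groups did not overlap within either genotype. The averaged log2 fold change of 1.54 ± 0.40 missed the threshold (adjusted p = 0.0611), and Hp did pass without the 2 libraries (1.00 ± 0.22, adjusted p = 0.0495).

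Hpx (chromosome 7, 105591611 to 105600116) was 3293, 3129, 2222 and 2068 FPKM in DKO chow replicates 1 to 4, and 5633, 15495 and 9283 in DKO Western diet replicates 1 to 3. In DKO/hA1 livers it was 3460 and 4299 on chow and 3065, 3378 and 13284 on Western diet. The DKO groups were separate, whereas DKO/hA1 Western diet replicates 1 and 2 lay below both DKO/hA1 chow libraries. The log2 fold change was 1.76 ± 0.50 in DKO (adjusted p = 0.237) and 0.41 ± 0.60 in DKO/hA1 livers (adjusted p = 0.835). Among the partners of the 10 genes, Cd163, the macrophage haemoglobin receptor, was at most 2.76 ± 1.38 FPKM as a group mean (DKO chow; averaged fold change -0.42, adjusted p = 0.374). Lrp1, a receptor for haem-bound hemopexin, had an averaged log2 fold change of 0.33 ± 0.15 (adjusted p = 0.251).

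Apcs and Lbp encode soluble recognition proteins. Apcs (chromosome 1, 172893961 to 172895054), the serum amyloid P component and a major acute-phase protein of the mouse, was 87.0, 73.2, 54.3 and 33.9 FPKM in DKO chow replicates 1 to 4. It was 212, 1918 and 551 in DKO Western diet replicates 1 to 3. The DKO/hA1 values were 86.9 and 169.6 on chow and 59.3, 83.7 and 1183 on Western diet. After Orm2, Orm3 and Lcn2 it had the widest range of the 10 genes, 56.6-fold between the highest and the lowest library. Its fold change was 3.28 ± 1.02 in DKO (adjusted p = 0.280) and 0.57 ± 1.22 in DKO/hA1 livers (adjusted p = 0.899), where 2 of the 3 Western diet libraries lay below both chow libraries.

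Lbp (chromosome 2, 158306493 to 158332852) encodes the protein that hands bacterial lipopolysaccharide to the receptor Cd14. It had the narrowest range, 4.34-fold. It was 48.4, 31.7, 38.1 and 33.9 FPKM in DKO chow replicates 1 to 4, and 67.7, 122.9 and 88.2 in DKO Western diet replicates 1 to 3. With human APOA1 it was 32.7 and 34.8 on chow and 35.9, 35.3 and 137.7 on Western diet. The DKO groups were separate, and replicates 1 and 2 of DKO/hA1 Western diet were only just above both chow libraries of that genotype. The averaged fold change was 0.94 ± 0.32 (adjusted p = 0.140). Cd14 had an averaged fold change of 1.64 ± 0.63 (adjusted p = 0.179), and its co-receptor gene Tlr4 one of 0.57 ± 0.17 (adjusted p = 0.094).

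Itih3 (chromosome 14, 30908572 to 30923787) encodes a heavy chain of the inter-alpha-trypsin inhibitor, a protein that is joined to hyaluronan in the matrix. It was 472, 383, 353 and 303 FPKM in DKO chow replicates 1 to 4, and 681, 2137 and 1317 in DKO Western diet replicates 1 to 3. In DKO/hA1 livers it was 422 and 474 on chow and 286, 377 and 1480 on Western diet. As for Hpx and Apcs, DKO/hA1 Western diet replicates 1 and 2 were below both chow libraries of that genotype. Its fold changes were 1.66 ± 0.53 in DKO (adjusted p = 0.280) and 0.27 ± 0.63 in DKO/hA1 livers (adjusted p = 0.907). Of the 5 other genes of this family tested, 0 passed in the averaged diet effect (2 at an unadjusted p below 0.05). Itih4, which encodes a related plasma protein, had the largest averaged fold change among them (0.99 ± 0.37, adjusted p = 0.168) and Itih5 the lowest (-0.38 ± 0.14, adjusted p = 0.158). Without both libraries that stood apart Itih2 passed as lower in the averaged diet effect (2.13% of all genes passed). Itih1 then passed as lower in the diet effect with human APOA1 (0.492% of all genes passed). Itih3 made up 21.4 to 24.2% of the FPKM of Itih1 to Itih4 in the chow libraries and 29.2, 33.4 and 32.0% in DKO Western diet replicates 1 to 3. The share was 21.4, 23.2 and 33.5% in DKO/hA1 Western diet replicates 1 to 3, so the first 2 of these were within the range of chow.

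Serpina3n (chromosome 12, 104406646 to 104414334) encodes a secreted serine protease inhibitor, a mouse relative of human antichymotrypsin. It was 316, 193, 132 and 126 FPKM in DKO chow replicates 1 to 4, and 366, 1903 and 998 in DKO Western diet replicates 1 to 3. The DKO/hA1 values were 93.7 and 121 on chow and 180, 238 and 1189 on Western diet. The diet groups did not overlap within either genotype, although DKO Western diet replicate 1 was only just above DKO chow replicate 1. The averaged fold change was 2.01 ± 0.55 (adjusted p = 0.0716). Serpina3k, the most abundant gene of the cluster at 4006 to 6926 FPKM, had an averaged fold change of -0.25 ± 0.16 (adjusted p = 0.424) and Serpina3m one of 0.77 ± 0.25 (adjusted p = 0.115). Of the 4 other Serpina3 genes tested 0 passed (3 at an unadjusted p below 0.05). Serpina3n made up 1.82 to 4.36% of the summed Serpina3 FPKM on chow and up to 21.2% (DKO/hA1 Western diet replicate 3). Of the 50-base stretches of its transcript 6.75% occur in another Serpina3 transcript, a smaller share than for Orm1 and Orm2.

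Western diet without human APOA1 was tested as DKO Western diet against DKO chow. All 10 genes were higher (48.7% of all genes), from 1.17 (Lbp) to 5.69 (Lcn2) on the log2 scale with a median of 2.32, against a median of -0.0062 over all genes tested. None of the 10 passed over all genes in limma, where 13 genes did (0.113%). At an unadjusted p below 0.05 all 10 were higher, as were 7.04% of all genes. In all 10 the DKO diet groups did not overlap in this direction, as in 10.5% of all genes. Without DKO/hA1 Western diet replicate 3, which enters through the shared estimate of the spread, 5 of the 10 passed (Hp, Hpx, Lbp, Lcn2 and Orm3), as did 65 of 11455 genes (0.567%). Without both libraries that stood apart 0 of the 10 passed (0.272% of all genes), and the median was 1.80.

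Western diet with human APOA1 was tested as DKO/hA1 Western diet against DKO/hA1 chow. The fold changes of all 10 genes were above 0 (48.6% of all genes), from 0.27 (Itih3) to 4.15 (Lcn2) with a median of 1.22, against -0.0084 over all genes. In limma 0 of 10 passed (1.31% of all genes), and 3 were higher at an unadjusted p below 0.05 (Orm2, Orm3 and Lcn2; 7.96% of all genes). The diet groups did not overlap for 6 of 10 (Orm2, Orm3, Lcn2, Hp, Lbp and Serpina3n), as for 15.6% of all genes. These values rest largely on DKO/hA1 Western diet replicate 3. Without it the median was 0.37, and the fold changes of Hpx (-0.28), Apcs (-0.79) and Itih3 (-0.46) were below 0.

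Averaged over genotypes, 3 of the 10 genes rose on Western diet (Lcn2, Orm2 and Orm3), and 462 of all genes passed (4%), 323 higher (2.8%) and 139 lower. The other 7 had fold changes from 0.94 (Lbp) to 2.01 (Serpina3n) with adjusted p from 0.0611 (Hp) to 0.224 (Itih3). The median of the 10 was 1.92. All 10 fold changes were above 0 (48% of all genes), and all 10 had an unadjusted p below 0.05 in this direction, as did 11.3% of all genes. The calls depended on single libraries and on the scaling. Orm3 alone of the 10 passed without replicate 3 of DKO chow (2.24% of all genes) or replicate 2 of DKO Western diet (2.03%), and 0 passed without replicate 1 (2.4%) or 2 (0.269%) of DKO/hA1 chow. Hp, Lcn2, Orm2, Orm3 and Serpina3n passed without replicate 1 of DKO Western diet (3.83% of all genes) or replicate 1 of DKO/hA1 Western diet (4.75%). Without both libraries that stood apart Hp, Lcn2 and Orm3 passed (2.13% of all genes) and the median was 1.09. With every library set to the same total, 4 passed (Hp, Lcn2, Orm2 and Orm3), and all genes split into 181 higher and 240 lower.

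**Figure D5:**
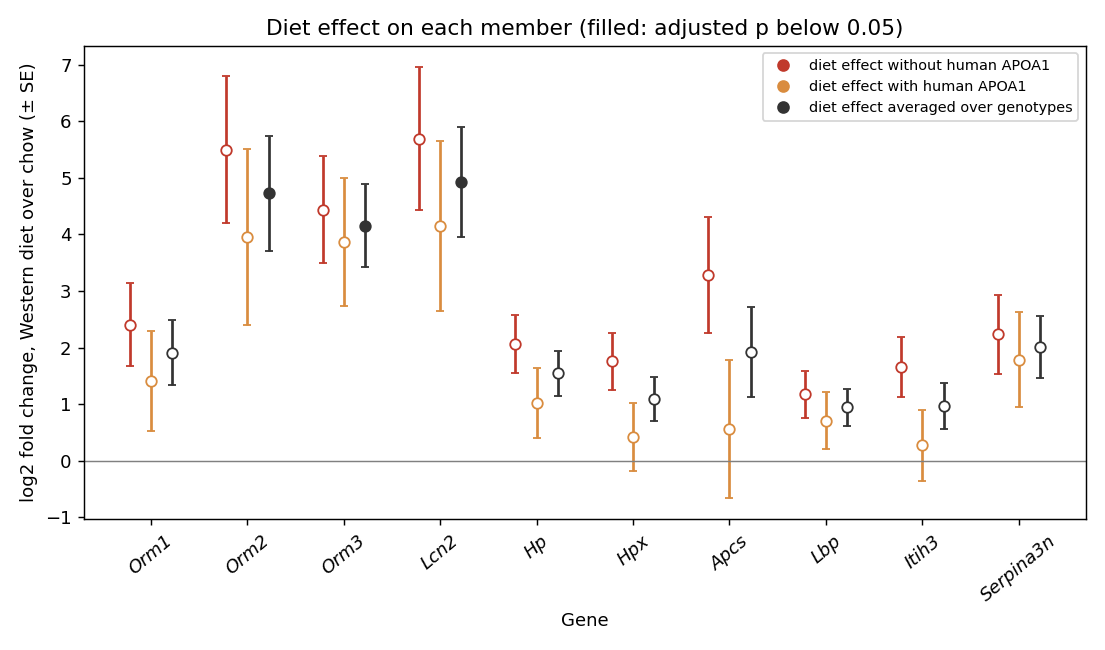
Log2 fold change of Western diet over chow for each of the 10 genes, without human APOA1, with it and averaged over genotypes; bars are SE and filled points have an adjusted p below 0.05. The filled points are the averaged effects of Orm2 (4.72), Orm3 (4.15) and Lcn2 (4.92).

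The transgene effect asked whether human APOA1 changes the level of these genes on the same diet. On chow the 10 fold changes ran from -1.32 (Orm3) to 1.01 (Apcs) with a median of -0.085, and 5 were above 0 (49.7% of all genes). In limma 0 of 10 passed (0.0779% of all genes), 0 at an unadjusted p below 0.05, and the genotypes overlapped for 8 of 10 (78.4% of all genes). The 2 without overlap were Hpx, higher, and Serpina3n, lower in both DKO/hA1 chow libraries. On Western diet 0 of the 10 fold changes were above 0 (48.8% of all genes); they ran from -1.89 (Orm3) to -0.64 (Lbp) with a median of -1.19. Again 0 of 10 passed in limma, as did 0 of all genes (0%, with 674 at an unadjusted p below 0.05), and 0 of the 10 reached an unadjusted p below 0.05. No gene of the 10 had all DKO libraries above all DKO/hA1 libraries on Western diet (5.16% of all genes), because DKO/hA1 Western diet replicate 3 was as high as the DKO livers. The 95% interval of the transgene effect on Western diet ran from -4.38 to 1.60 for Lcn2 and from -1.62 to 0.34 for Lbp, so large effects in either direction remain within the error for Lcn2. Single libraries moved the median on Western diet, to -2.11 without replicate 3 and -0.63 without replicate 1 of the DKO/hA1 group, and to -1.82 without replicate 1 and -0.67 without replicate 2 of the DKO group.

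The diet by genotype interaction, the diet effect with human APOA1 minus that without it, was above 0 for 0 of the 10 genes (50.8% of all genes) and ran from -2.72 ± 1.59 (Apcs) to -0.45 ± 1.09 (Serpina3n). The median was -1.19, against 0.0050 over all genes. In limma 0 of 10 passed (0.0173% of all genes) and 0 reached an unadjusted p below 0.05. For Orm3 the 95% interval ran from -3.85 to 2.70 and for Hp from -2.82 to 0.73, so a difference between genotypes in the diet effect was not shown. Leaving out replicate 3 of DKO/hA1 Western diet gave a median of -2.01, and leaving out its replicate 1 gave -0.41. It was -0.72 without replicate 2 of DKO Western diet and -0.61 without replicate 2 of DKO/hA1 chow. Without both libraries that stood apart, picked partly by these genes, the median was -1.57. None of the 10 then passed in limma (0.0176% of all genes). Apcs, Hp, Hpx, Itih3 and Lbp had an unadjusted p below 0.05, as did 895 of 11381 genes in either direction. The transgene and interaction comparisons share libraries with the diet comparisons, and the agreement of their signs is no further evidence.

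Serum amyloid A, the other large group of hepatic acute-phase proteins, rose with diet averaged over genotypes in 4 of 4 genes (median 3.30). Saa1 went from 166 ± 93.7 to 17205 ± 14486 FPKM in DKO and from 335 ± 333 to 9994 ± 15833 in DKO/hA1 livers (4.88 ± 1.02, adjusted p = 0.030). Saa2 changed by 5.43 ± 1.11 (adjusted p = 0.0267). Saa3, made by macrophages as well as liver, changed by 1.73 ± 0.24 (adjusted p = 0.00616), and Saa4, the constitutive form, by 1.54 ± 0.25 (adjusted p = 0.00876). Without both libraries that stood apart 4 of 4 still passed (median 2.60).

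Of 22 other positive acute-phase genes tested, 2 rose and 1 fell, with a median of 0.54. The interleukin-1 receptor antagonist Il1rn rose by 1.46 ± 0.34 (adjusted p = 0.0415) and the secreted glycoprotein gene Lrg1 by 1.68 ± 0.41 (adjusted p = 0.0458). Hamp, the gene of the iron hormone hepcidin, fell by 1.35 ± 0.32 (log2 fold change -1.35, adjusted p = 0.0426). Its means went from 3176 ± 109 to 768 ± 308 FPKM in DKO/hA1 livers. In DKO livers they went from 1745 ± 452 to 1408 ± 923, and the diet groups overlapped. The interaction of Hamp (-1.60 ± 0.65) did not pass (adjusted p = 0.963). The largest fold change, that of the metallothionein gene Mt2 (3.75 ± 1.14), did not pass (adjusted p = 0.103). The fibrinogen chains Fga (0.41 ± 0.40, adjusted p = 0.637) and Fgb (0.46 ± 0.37, adjusted p = 0.545) did not pass either. For both, DKO Western diet libraries lay above all DKO chow libraries (10.5% of all genes), and the DKO/hA1 diet groups overlapped. Fga was 1306 to 2074 FPKM in DKO chow and 2234 to 6077 in DKO Western diet. In DKO/hA1 livers it was 2081 to 2605 on chow and 1046 to 5132 on Western diet. The interactions of Fga and Fgb did not pass (adjusted p = 0.963 for each). Without both libraries that stood apart 2 rose (Il1rn and Vnn1), 0 fell and the median was 0.22. Of 12 negative acute-phase genes, whose transcripts are known to fall in an acute-phase response, 0 passed and 1 had an unadjusted p below 0.05. Their median was -0.064, from -0.76 ± 0.23 for the transthyretin gene Ttr (adjusted p = 0.0882) to 0.26 ± 0.16 for Apoc3 (adjusted p = 0.40).

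The upstream signalling genes are set beside the 4% of all genes that passed in the averaged diet effect. Of the 9 ligand genes only 3 reached the tested level, and Il6, Il11, Il22, Lif, Osm and Tnf did not. Il1a rose by 0.70 ± 0.17 (adjusted p = 0.0426), from 2.02 ± 0.50 to 3.21 ± 1.41 FPKM in DKO and from 1.65 ± 0.66 to 4.28 ± 0.71 in DKO/hA1 livers, and Il18 had a fold change of -0.0077. Of 10 cytokine receptor genes the tumour necrosis factor receptor Tnfrsf1b rose by 0.70 ± 0.14 (adjusted p = 0.0212) and the leukaemia inhibitory factor receptor Lifr fell by 1.12 (log2 fold change -1.12 ± 0.18, adjusted p = 0.0086). Il1r1 had the largest fold change (1.34 ± 0.48, adjusted p = 0.158). Of 15 transducers and transcription factors 0 passed and 2 had an unadjusted p below 0.05. Cebpd, which encodes an inducible C/EBP factor, was the highest (0.93 ± 0.23, adjusted p = 0.0508), and the kinase gene Tyk2 was the lowest (-0.068). Stat3 had a fold change of 0.15 ± 0.15 (adjusted p = 0.645). Of 8 feedback inhibitors Tnfaip3 rose by 0.64 ± 0.12 (adjusted p = 0.0159), while Socs3, induced by interleukin-6 signalling, had a fold change of 1.47 ± 0.46 (adjusted p = 0.106) and Cish one of -0.45. Without both libraries that stood apart, Lifr and Tnfaip3 passed and Il1a and Tnfrsf1b did not. Of 10 genes for receptors and partners of the members, the Fc receptor gene Fcgr1 rose by 1.16 ± 0.19 (adjusted p = 0.00894) and Bdh2, an enzyme proposed to make the mammalian siderophore that Lcn2 binds, fell by 1.47 (log2 fold change -1.47 ± 0.29, adjusted p = 0.0223). Fcgr1 passed and Bdh2 did not when both libraries that stood apart were left out.

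Markers of Kupffer cells and macrophages were also higher on Western diet. Their summed FPKM over 12 genes was 290 to 721 on chow and 968 to 1268 on Western diet in DKO livers, and 212 to 574 on chow and 1442 to 2172 on Western diet in DKO/hA1 livers. In the averaged diet effect 7 of 12 rose (C1qa, C1qb, C1qc, Cd5l, Cd68, Lyz2 and Vsig4), with a median of 1.43 from 1.01 ± 0.27 for Clec4f (adjusted p = 0.0651) to 1.90 ± 0.63 for Marco (adjusted p = 0.129). Their order across livers differed from that of the acute-phase genes: DKO/hA1 Western diet replicates 1 and 2 had macrophage sums of 1442 and 1543 FPKM, above all DKO Western diet livers, while their acute-phase sums (7502 and 9099 FPKM) lay below all of these (15322 to 56039 FPKM). Without both libraries that stood apart 2 of 12 passed (C1qa and Cd5l) and the median was 1.41. Of 13 hepatocyte markers 0 passed and 3 had an unadjusted p below 0.05 (median -0.094, from -0.76 for Ttr to 0.28 ± 0.14 for Hpd). In the lists for T and NK cells (5 tested, median -0.12), B cells (3, -0.42), endothelium (7, 0.13), stellate cells (9, 0.13), cholangiocytes (4, -0.42) and red blood cells (5, -0.20) 0 genes passed, with 0 to 2 in each at an unadjusted p below 0.05. Of the adipose markers Plin1, Lep and Retn were listed at 0 in all 12 libraries, and Cfd, the 1 adipose gene tested, had a fold change of 1.06 (adjusted p = 0.511). The part of macrophages in the results for the acute-phase genes was not tested.

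Across the 12 libraries, the genes outside the 10 whose log2 level followed the mean of their standardised log2 levels most closely were Clu (Pearson r = 0.993), Lrg1 (0.986), Prg4 (0.986), Prtn3 (0.979), Gm7694 (0.978), Saa1 (0.974), Slc13a5 (0.974), Tmem176b (0.973), Cpb2 (0.973) and Rpap3 (0.973). These are descriptions over libraries that share the diet groups and the 2 libraries that stood apart, and no p is given. Clu, the gene of the secreted chaperone clusterin, was 643 to 864 FPKM on chow in DKO livers, 1147, 1783 and 1469 in DKO Western diet replicates 1 to 3 and 757, 909 and 1744 in DKO/hA1 Western diet replicates 1 to 3. Gene by gene, the closest was Clu for Orm1, Saa1 for Orm2 and Lcn2, Lrg1 for Orm3 and Serpina3n, Prg4 for Hp, Tmem176b for Hpx, Cpb2 for Apcs and Itih3, and Gm7694 for Lbp, with r from 0.971 to 0.991.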

How the data were processed

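RNA from whole liver was sequenced on an Illumina Genome Analyzer IIx with libraries pooled on lanes, per the labels' protocols. The submitters' processing notes name TopHat 1.3.2, Bowtie 0.12.8, SAMtools 0.1.19 and Cuffdiff with mouse build mm10; the annotation, and the Cuffdiff version, are not given in the sources used here. The authors deposited 1 table of FPKM for 12 libraries; its values have decimals in every column and are not counts, so read depth is unknown and no counting interval is given.

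Columns were assigned to groups by the sample labels. Small RNA genes (778) and 21 genes listed at 0 throughout a group but expressed in every library of another were left out. Genes with at least 1 FPKM in at least 2 libraries were tested (11548). Libraries were brought to a common scale with a trimmed mean (trim 0.3 for log ratios, 0.05 for levels, no weights). Fold changes are on the log2(FPKM + 1) scale, which understates those of low genes. Group means were fitted to all 12 libraries at once with limma 3.58.1 in R 4.3.3, with a trended, robust variance. The two-sided p-values were adjusted by Benjamini-Hochberg across the 11548 genes, and a gene passed at an adjusted p below 0.05. The fit was tested on simulated data with a spread taken from the DKO chow libraries. A spread as wide as that of Orm2 or Lcn2 in DKO/hA1 Western diet was not simulated. Descriptions, the promoter search and figures used Python 3.11.15, pandas 2.3.3, numpy 2.4.6, Biopython 1.88 and matplotlib 3.10.9. Gene positions and sequences are from RefSeq, build GRCm38.p6, and shared 50-base stretches were counted in the reference transcripts.

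The members and lists were chosen with earlier results of these data known. One gene of the list of other positive acute-phase genes is not reported here and was left out of its counts and medians. Genes named are the 10 members, list genes that passed, the highest and lowest of each list in the averaged diet effect, and the genes most like the members over the 12 libraries. A few further list genes (among them Stat3, Lrp1, Cd163, Tlr4, Fga and Fgb) were named after their values were seen. Alternatives were the added value, the level filter, the scaling, the variance model, a replicate block, leaving out each library, and leaving out both libraries with the largest share in 10 genes.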

Additional observations from a re-analysis of the deposited data

How the results depend on the processing

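The 10 genes in 6 comparisons under 20 alternatives gave 1200 values: 1148 kept direction and side of the threshold, 17 lost and 13 gained a call, and 22 changed sign. No fold change changed sign in the diet effect without human APOA1, the averaged diet effect or the transgene effect on Western diet, and among the scalings none did in any comparison. In the averaged diet effect Orm3 passed under 17 of 20 alternatives, Lcn2 15, Orm2 11, Hp 6 and Serpina3n 2. Setting every library to 1 total moved the median over all genes to -0.186 (diet without human APOA1), -0.137 (averaged), 0.164 (transgene on Western diet) and 0.111 (interaction).

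No label says that the same replicate numbers pair libraries. Over 15 pairs with the same number the correlations of deviations from group means ran from -0.280 to 0.443, and 4 were above 0.1. Of the libraries, 4 correlated best with their own number. With groups of 2 to 4 libraries these correlations cannot decide whether some libraries are paired. With the replicate block 0 of the 10 genes passed in the averaged diet effect, and the counts over all genes were 82 (diet with human APOA1), 295 (averaged) and 1 (interaction).

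Over all genes, without both libraries with the largest share in 10 genes, 31 genes passed for diet without human APOA1 (main 13), 56 with it (main 151), 242 averaged (main 462) and 38 for the transgene on chow (main 9). Equal totals gave 69 for diet with human APOA1 (39 higher and 30 lower, against 116 and 35) and 1 for the interaction (main 2). The transgene on chow had 3 with 0.1 added and 28 with no level filter, and the interaction 8 with no level filter. Leaving out 1 library gave 8 to 65 for diet without human APOA1 (0 to 5 of the 10 genes), 6 to 191 with it, 31 to 547 averaged (0 to 5 of the 10), 2 to 33 for the transgene on chow and 1 to 8 for the interaction.

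Fold changes that changed sign, none of them called, were as follows. For diet with human APOA1 without both libraries they were Hpx -0.27, Apcs -0.79 and Itih3 -0.46. Leaving out 1 library gave -0.28 to 0.80 for Hpx, -0.79 to 1.38 for Apcs and -0.46 to 0.75 for Itih3. For the transgene on chow Hp was -0.007 with no level filter, and leaving out 1 library gave -0.12 to 0.13 for Hp, -0.52 to 0.18 for Orm1, -1.25 to 0.69 for Orm2 and -1.06 to 1.35 for Lcn2. For the interaction Orm3 was 0.26 with 0.1 added, and leaving out 1 library gave -1.70 to 0.079 for Orm3 and -1.30 to 0.11 for Serpina3n. The cause was not tested.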
